A study of Homo sapiens with 2 samples.

Results

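The cells described here are cardiomyocytes that carried much CD34 protein on their surface, divided by whether a CD34 transcript was also counted in them. They come from 1 culture of HES2, an established line of human embryonic stem cells, differentiated towards pacemaker cardiomyocytes like those of the sinoatrial node, labelled SANLPC. Each cell was measured for its polyadenylated RNA and for a barcoded antibody against human CD34, an assay called CITE-seq, and the RNA and antibody-tag libraries were made from the same cells, sorted as live singlets. Members had at least 1000 genes, at most 25% mitochondrial UMIs (unique molecular identifiers, the counted molecules), 8000 to 30000 RNA UMIs, TNNT2 at 2000 CPM (UMIs per 1000000 RNA UMIs) or more, at most 4 UMIs of the epithelial genes VTCN1, GATA3, CLDN4 and WNT6 together and at least 280 antibody-tag UMIs. Of 14829 barcodes, 4336 were cardiomyocytes by these limits and 1146 of them were also tag high. CD34-present cells had at least 1 CD34 transcript UMI (329 cells) and CD34-absent cells had 0 (817 cells). Both groups share that line and differentiation, the labels name no other genotype, treatment or time, and there is no replicate. No test between cultures can therefore be made, and every interval given is an exact 95% interval that covers counting error only, not the spread between cells or cultures.

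CD34 is a heavily glycosylated sialomucin of the cell surface, best known on blood stem and progenitor cells and on the endothelium of small vessels. Its transcript and its protein are separate products: a protein can stay on the surface after the transcript has been degraded, and a droplet library samples only a fraction of the transcripts of a cell. In the sinoatrial node, pacemaker cardiomyocytes fire spontaneously and are set apart from working myocardium by transcription factors such as TBX3 and SHOX2. The split therefore asks whether cells with a counted CD34 transcript differ in other genes from cells that carry like amounts of the protein without one.

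The gene that divides the cells, CD34 (ENSG00000174059), lies on GRCh38 chromosome 1 at 207880972 to 207911125, on the minus strand. The 250 bases before its transcript start, from RefSeq (GRCh38.p14, chr1:207911126-207911375, minus strand), are shown because CD34 is the gene on which every comparison here turns. The counts themselves come from the other end of the transcript.
CD34 promoter: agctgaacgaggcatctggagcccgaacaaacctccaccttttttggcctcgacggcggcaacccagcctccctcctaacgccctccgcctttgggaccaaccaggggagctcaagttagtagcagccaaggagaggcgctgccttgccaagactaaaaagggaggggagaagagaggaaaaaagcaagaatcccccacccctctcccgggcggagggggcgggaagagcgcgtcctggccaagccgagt
With the first 50 transcribed bases, which are not printed, the G and C content was 61.7%, against a median of 58.7% over the 35116 promoters of the same 300-base length in the RefSeq table. On both strands it held 0 matches to TATAAA, the letters of a TATA box, which 11.5% of those promoters hold. It also held 0 matches to the GATA factor motif AGATAA, found in 10.3% of promoters. It held 0 matches to the T-box motif AGGTGTGA, found in 0.980%. These letters were absent from this window, which says nothing of the factors elsewhere.

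CD34 transcripts were few per cell even among CD34-present cells. Of the 329, 222 cells (67.5%) had 1 CD34 UMI, 72 had 2, 23 had 3, 6 had 4, 5 had 5 and 1 had 8. Antibody-tag UMIs went up with them, at a median of 829.5 in cells with 1 CD34 UMI, 1394.5 with 2 and 1714 with 3 or more, against 573 in cells with none. Both measures were used to choose the cells, so these values describe the split and test nothing.

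The share of tag-high cardiomyocytes with a CD34 UMI was 28.7% (26.1 to 31.4%), and it followed the tag level more than the depth of the cell. In the fifth of cells with the fewest antibody-tag UMIs (280 to 392) it was 14.4% (10.1 to 19.6%), and it went up through 18.8%, 23.9% and 35.3% to 50.9% (44.2 to 57.5%) in the fifth with the most (1296 to 7294). By RNA depth it lay between 24.9% and 28.4% in the lower 4 bins and at 36.5% (30.3 to 43.1%) in the deepest, from 21454 to 29910 UMIs. After each cell was thinned to 8000 RNA UMIs, with no cell left out, the shares by tag level were 6.99%, 12.2%, 15.5%, 19.8% and 32.2%, and those by depth had no order. Thinned, 17.4% of all tag-high cardiomyocytes kept a CD34 UMI (15.2 to 19.7%). In the 3750 epithelial-like cells of the same filters, which should lack CD34, the share was 0.133% thinned and 0.453% unthinned, at a median depth of 17778.5 UMIs against 16456.5 in the tag-high cells. A cell counted as CD34-absent may thus hold CD34 transcripts that were not sampled. Of the CD34-present cells compared below, 59.2% (53.5 to 64.8%) still had a CD34 UMI after thinning.

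**Figure D1:**
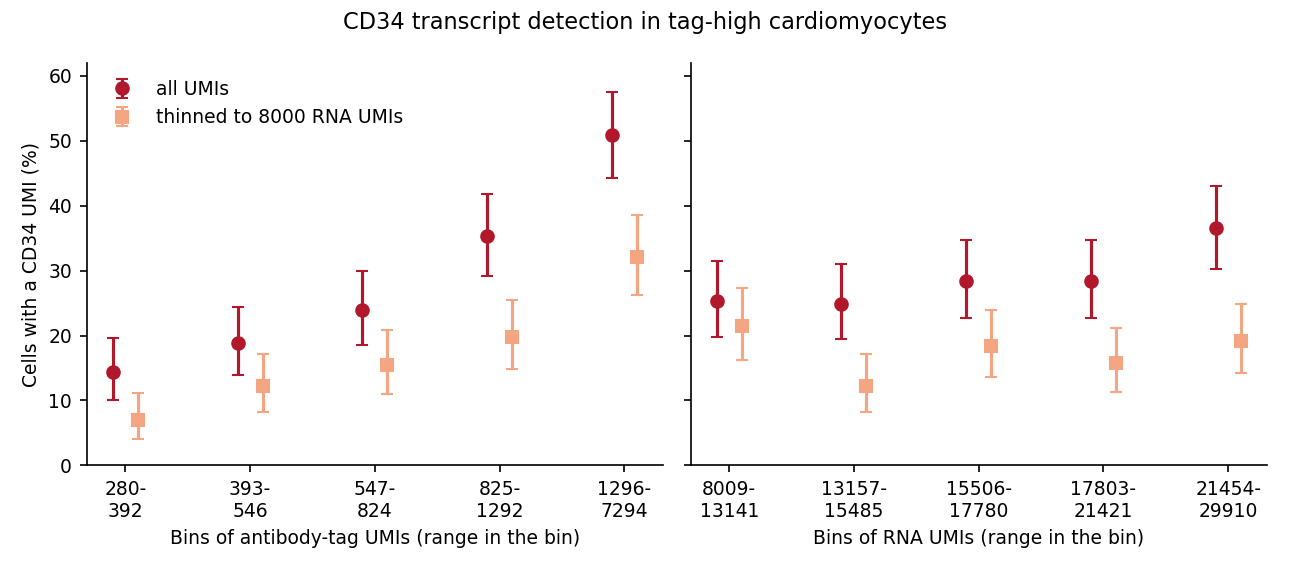
Share of tag-high cardiomyocytes with at least 1 CD34 transcript UMI (y axis, %) in 5 bins of antibody-tag UMIs (left) and 5 bins of RNA UMIs (right); points are shares, bars exact 95% intervals, circles all UMIs and squares cells thinned to 8000 RNA UMIs. The share goes from 14.4% in the lowest to 50.9% in the highest tag bin, while across depth it runs from 24.9% to 36.5%.

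Around the limit of 280 antibody-tag UMIs, the members just inside had 280, 280, 281, 282 and 282 UMIs and the cells just outside had 279 and 278. From 280 to 308 antibody-tag UMIs, 8 of 77 cardiomyocytes had a CD34 UMI (10.4%, 4.59 to 19.4%), and from 252 to 279 UMIs 2 of 59 did (3.39%, 0.413 to 11.7%). The intervals overlap, and the limit cuts a continuous measure.

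CD34-present cells had a median of 1038 antibody-tag UMIs (quartiles 578 and 1651) and CD34-absent cells 573 (398 and 941). The groups were therefore compared in pairs of like tag level, each CD34-present cell with 1 CD34-absent cell within 10% of its antibody-tag UMIs. This gave 309 pairs, 93.9% of the CD34-present cells, with a median gap of 0.175% and a median of 954 antibody-tag UMIs on both sides. The 20 CD34-present cells left without a partner had 2511 to 7294 antibody-tag UMIs, and 508 CD34-absent cells, with a median of 475, were not used. Paired CD34-present cells had a median of 17327 RNA UMIs and 4608 genes, paired CD34-absent cells 16914 and 4555, and the CD34-present cell was the deeper in 162 pairs (52.4%). The median mitochondrial share was 11.2% (quartiles 9.41 and 14.2%) in CD34-present and 12.4% (10.2 and 14.4%) in CD34-absent cells. When pairs were also matched on RNA depth, 10 of the 15 highest ratios were still at least 25% higher and 6 of the 15 lowest at least 20% lower. These genes were chosen by their ratios in pairs that share cells with the depth-matched ones, so the counts are no independent check.

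At like tag level both groups had nearly the same transcriptome. Counts were summed over the 309 cells of each group, 5517196 RNA UMIs in CD34-present and 5418395 in CD34-absent cells, and scaled to CPM. Leaving out CD34, 3266 genes reached 50 CPM in at least 1 group, and 33 of them (1.01%) were at least 25% higher in CD34-present than in CD34-absent cells, while 16 (0.49%) were at least 20% lower. Genes past these limits are called higher or lower below, with no test behind the words, and a ratio is always CD34-present over CD34-absent. The middle 90% of ratios lay between 0.892 and 1.15, with a median of 1.01, and 79.1% of genes differed by less than 1.1-fold. Because a gene needs 50 CPM in only 1 group to be counted, genes near that level could enter through the higher group alone. At 100 CPM or more, where counting error is smaller, 6 of 1615 genes (0.372%) were higher and 5 (0.31%) lower, and at 10 CPM or more 505 of 8970 (5.63%) were higher and 404 (4.5%) lower.

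**Figure D2:**
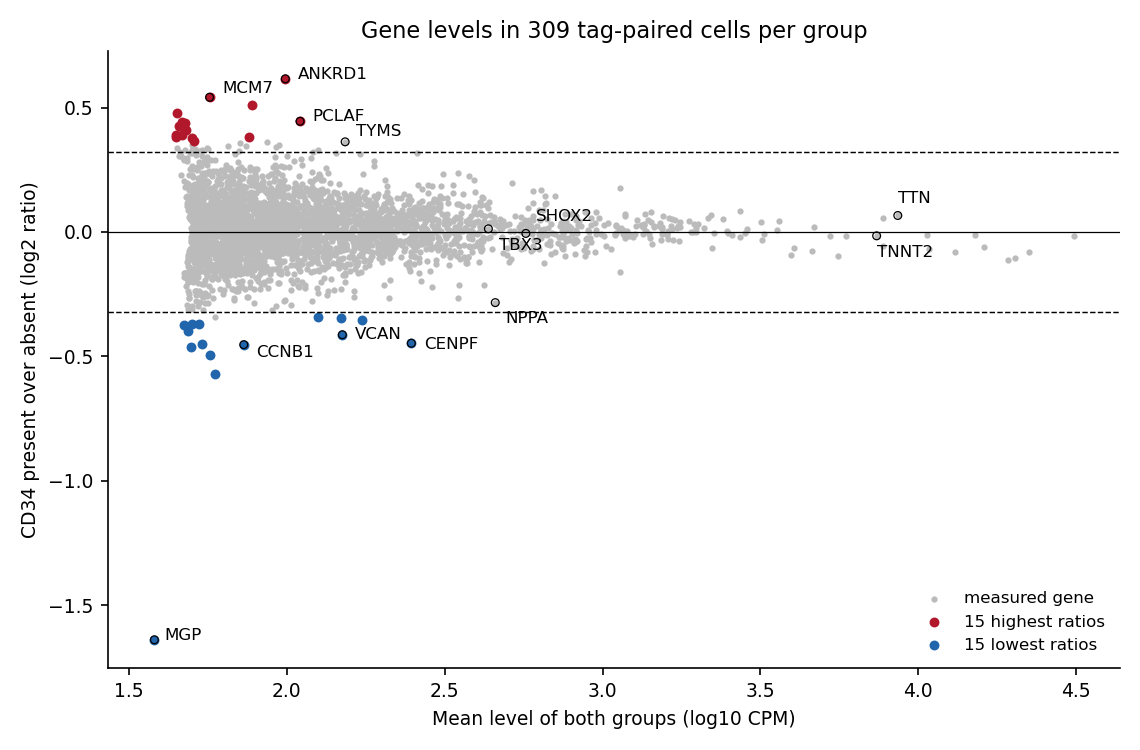
Log2 ratio of gene levels, CD34-present over CD34-absent cells (y axis), against the mean level of both groups (x axis, log10 CPM) for 3266 measured genes, with the 15 highest ratios in red and the 15 lowest in blue; dashed lines mark 25% higher and 20% lower. The spread narrows with level, and MGP, at 0.321 as a ratio, lies farthest from 0.

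Pacemaker transcription factors and most other pacemaker genes differed little between the groups, by less than the limits used. TBX3, which represses genes of working myocardium and lies on chromosome 12 at 114670255 to 114684175, had 437 CPM in CD34-present, 433 CPM in CD34-absent and 74.1 CPM in tag-low cardiomyocytes. The last are the 1106 cells at or under 48 antibody-tag UMIs, the lowest 25%, with no CD34 UMI. The TBX3 ratio between the tag-high groups was 1.01 (0.953 to 1.07). SHOX2, which is needed to form the sinus node, had 570, 572 and 557 CPM in the same order, so it set none of the groups apart. NECAB1, a neuronal calcium-binding protein, had 98.1, 95.2 and 17.2 CPM, and ALDH1A1, which makes retinoic acid, had 426, 395 and 103 CPM. The levels of TBX3, NECAB1 and ALDH1A1 were thus near each other in both tag-high groups and lower in tag-low cells.

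Of the 7 pacemaker transcription factors all were measured, and none was past either limit, with ratios from 0.869 for MEIS2 to 1.02 for TBX5. TBX18, a factor of the sinus horn, had a ratio of 0.970 (0.864 to 1.09), ISL1 of 0.977 (0.852 to 1.12) and HAND2 of 0.946. The wider list of 15 pacemaker genes had 12 measured, with 1 higher and none lower, beside 1.01% and 0.49% of all measured genes. Its median log2 ratio was 0.025, against 0.015 over all measured genes. HCN4, the main channel of the pacemaker current, had 119 CPM in CD34-present and 108 CPM in CD34-absent cells (ratio 1.101, 0.984 to 1.23). The calcium channel gene CACNA1D had 137 and 119 CPM (1.15, 1.04 to 1.28), and BMP4, VSNL1 and CPNE5 had ratios of 1.03, 1.04 and 0.971. RGS6, CACNA1G and SMOC2 lay under 50 CPM, with ratios of 0.942, 0.972 and 1.39, the last on 44 and 31 counts.

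The pacemaker gene past the limit was GNAO1, a G protein alpha subunit on chromosome 16 at 56191489 to 56357444, at 82.8 CPM in CD34-present and 65.1 CPM in CD34-absent cells (ratio 1.27, 1.104 to 1.47), against 28.5 CPM in tag-low cells. KCNJ5, a subunit of the potassium channel that acetylcholine opens to slow the heartbeat, had 78.5 and 62.6 CPM (1.254, 1.09 to 1.45), against 26.6 CPM in tag-low cells. These made up the 2 higher of 5 measured members among the 10 genes of the acetylcholine-gated current, beside 1.01% of all measured genes. CHRM2, its muscarinic receptor, had a ratio of 1.01 and GNAI2 of 1.01, while KCNJ3, the partner subunit, had 49.3 and 43.0 CPM (1.15, 0.959 to 1.37). ADORA1, an adenosine receptor gene that acts on the same channel, had 26.3 and 19.0 CPM (1.38, 1.07 to 1.80), under the level at which genes were counted. After thinning, a KCNJ5 UMI was found in 48.2% of CD34-present and 35.3% of CD34-absent cells, and in 0.987% of epithelial-like cells. Across all alternatives the KCNJ5 ratio stayed above 1 (1.11 to 1.58), as did that of GNAO1 (1.05 to 1.38). The alternatives share cells with the main comparison, and those that changed only the CPM floor cannot move a ratio, so they are no independent support. Neither gene was at least 25% higher when pairs were also matched on depth (1.14 and 1.19).

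Several genes of working myocardium were low in both tag-high groups. NKX2-5, the homeobox gene of working myocardium, gave 20 counts in CD34-present and 33 in CD34-absent cells, or 3.63 and 6.09 CPM (ratio 0.595, 0.324 to 1.07), against 45.4 CPM in tag-low cells. GJA5, a fast-conducting connexin, had 6.34 and 8.67 CPM, and KCNA5 had 5.26 and 5.54. GJA1, SLN, NPPB and RYR3 gave 4 to 8 counts in each group. Of 12 working genes 3 were measured, with none past a limit: NPPA at 412 and 502 CPM (0.821, 0.777 to 0.869), ADM at a ratio of 0.974 and PAM at 1.08. NPPA, the atrial natriuretic peptide gene, had 506 CPM in tag-low cells, and its ratio ran from 0.734 to 1.12 over the alternatives.

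**Figure D3:**
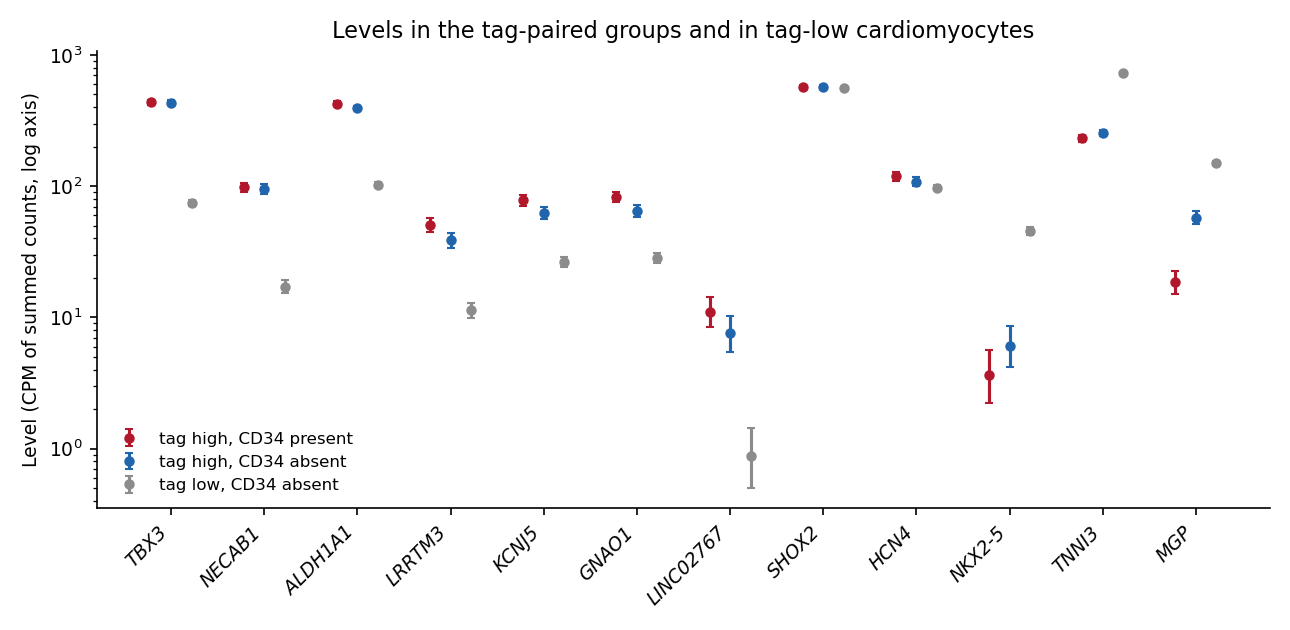
Level (y axis, CPM of summed counts, log axis) of 12 genes in paired CD34-present cells (red), paired CD34-absent cells (blue), both tag high, and CD34-absent tag-low cardiomyocytes (grey); bars are exact 95% counting intervals. TBX3 and NECAB1 are far apart between tag-high and tag-low cells and near each other between the tag-high groups, the intervals of LINC02767 overlap between the tag-high groups at 11.1 and 7.57 CPM, and SHOX2 is level in all 3.

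The contractile and metabolic programmes did not differ by the limits used. All 13 measured sarcomere genes of 14 were between them, with ratios from 0.903 for TNNI3 to 1.05 for TTN, the giant spring protein titin. MYH6, MYL7 and ACTC1, which the selection did not use, had 7899, 15040 and 7557 CPM in CD34-present cells against 7589, 15163 and 7853 CPM in CD34-absent cells, so both groups had further cardiomyocyte markers. Of the calcium handling genes 6 of 10 were measured with none past a limit, the lowest being TRDN at 0.897. Ventricular genes (4 of 8) had ratios from 0.893 for CKM to 1.03 for FHL2, oxidative phosphorylation genes (15 of 15) from 0.899 to 1.002 and glycolysis genes (11 of 12) from 0.942 to 1.11. All 13 mitochondrially encoded genes were measured and lay between 0.926 and 1.05, and 86 ribosomal protein genes between 0.870 and 1.16. Smooth muscle genes had a median log2 ratio of 0.12. TAGLN had 287 and 230 CPM (1.247, 1.16 to 1.34) and MYH11 1204 and 1065 CPM (1.13, 1.09 to 1.17), and none of the 6 measured of 8 was past a limit.

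Several genes of DNA replication had higher levels in CD34-present cells. Over all pairs, all 10 S phase genes had ratios above 1, from 1.048 for CDC6 to 1.47 for MCM5. Of these, 5 were measured, of which 3 were higher and none lower, beside 1.01% of all measured genes; GINS2 and RRM2 reached 50 CPM in CD34-present cells alone, so this count only describes the list. The list's median log2 ratio was 0.36, against 0.015 over all genes, and its summed level was 620 CPM in CD34-present and 491 CPM in CD34-absent cells. The higher members were GINS2, a part of the replicative helicase (54.7 and 40.4 CPM, ratio 1.35, 1.13 to 1.62), TYMS, which makes thymidylate (172 and 134 CPM, 1.29, 1.17 to 1.42), and PCNA, the sliding clamp (79.8 and 62.2 CPM, 1.28, 1.11 to 1.48). The others were MCM3 at 1.248, just under the limit, and RRM2 at 1.19. MCM5, under the floor, had 40.6 and 27.7 CPM (1.47, 1.19 to 1.82).

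Among the 15 highest ratios, MCM7, PCLAF and RPA2 also act in DNA replication; they are outside the S phase list and were picked out after their values were seen. MCM7 and RPA2 reached 50 CPM in CD34-present cells alone. MCM7, another part of that helicase on chromosome 7 at 100092728 to 100101397, had 67.4 CPM in CD34-present and 46.3 CPM in CD34-absent cells (1.46, 1.24 to 1.72), and its ratio was 1.88, 1.27 and 1.27 in the lowest, middle and highest of 3 bins of tag level. PCLAF, a PCNA-binding factor, had 127 and 93.2 CPM (1.36, 1.21 to 1.53), and RPA2, of the single-strand binding complex, had a ratio of 1.29. Tag-low cells had 43.5 CPM of MCM7, close to CD34-absent cells. After thinning, 23.3% of CD34-present and 19.1% of CD34-absent cells had an MCM7 UMI, and the highest single cell held 4.30% and 5.18% of the MCM7 counts.

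The cell cycle clusters did not all differ alike between the groups. When the 4336 cardiomyocytes were clustered on RNA without CD34, cluster 2, led by DTL, CDC6, MCM10 and MCM2, held 14.2% of paired CD34-present and 10.4% of paired CD34-absent cells. Cluster 9, led by replication histone genes, held 6.47% and 7.12%, and cluster 8, led by the mitotic genes KIF20A and PLK1, held 4.53% and 6.47%. The clusters were drawn with the genes compared here, so these shares only locate the cells. Among tag-high cells of cluster 2, 37.6% had a CD34 UMI (29.1 to 46.7%), against 19.2% in cluster 8 (10.9 to 30.1%) at unlike tag levels. The share in cluster 3, led by TBX3 and not by cell cycle genes, was 37.0% (31.6 to 42.6%). With pairs also matched on RNA depth, GINS2 and PCNA were no longer past the limit (1.19 and 1.199), nor was RPA2 (1.22). The S phase median was 0.26 with those pairs and 0.22 when they were matched on depth and cluster, and 0.61 when all 817 CD34-absent cells were used, weighted to the tag levels of the CD34-present cells. GINS2 was at 0.925 with pairs matched on depth and cluster. As the clusters were drawn with cell cycle genes, no direction is read from pairs matched on them. When the more strongly cycling cells were left out, by their level of cell cycle genes, no member of the list was measured. GINS2 and PCNA had ratios of 0.730 and 0.705 there, and MCM7 of 1.07. The filter used cell cycle genes themselves, so no direction is read from these ratios.

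Some G2 and mitosis genes were lower in the paired comparison, and the direction of the list depended on how the CD34-absent cells were chosen. Of 10, 7 were measured, with 2 lower, none higher and a median log2 ratio of -0.19, against 0.49% of all measured genes. The lower members were CENPF, a kinetochore protein (210 and 286 CPM, ratio 0.734, 0.679 to 0.792), and CCNB1, cyclin B1 (61.6 and 84.3 CPM, 0.731, 0.633 to 0.843). Shares of cells with a UMI were nearly equal, at 25.2% and 24.6% for CENPF and 16.5% and 16.2% for CCNB1 after thinning. With pairs within 5% the list's median was -0.18, at a tag limit of 400 UMIs -0.23, without any UMI of the epithelial genes -0.27 and after thinning -0.50. Matched also on RNA depth it was 0.04, and matched on TBX3 0.24. Using all cells weighted by tag level, the list's median was 0.17 and the ratios were 0.929 for CENPF and 0.841 for CCNB1. Matched also on depth and cluster, the median was 0.49 and the ratios 1.23 and 1.58. The clusters were drawn with cell cycle genes themselves, so no direction is read from these pairs. Other cell cycle genes among the 15 lowest ratios are outside the list and were picked out after their values were seen. They were KIF23 (0.726), DLGAP5 (0.731), KPNA2 (0.783), ARL6IP1 (0.787), PTTG1 (0.788) and the alpha tubulin gene TUBA1C (0.711), whose reads may be shared with near-identical tubulin genes. Each of them was above 1 with pairs matched on depth and cluster, from which again no direction is read. KIF23, DLGAP5 and TUBA1C reached 50 CPM in CD34-absent cells alone, so their ratios only describe them.

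**Figure D4:**
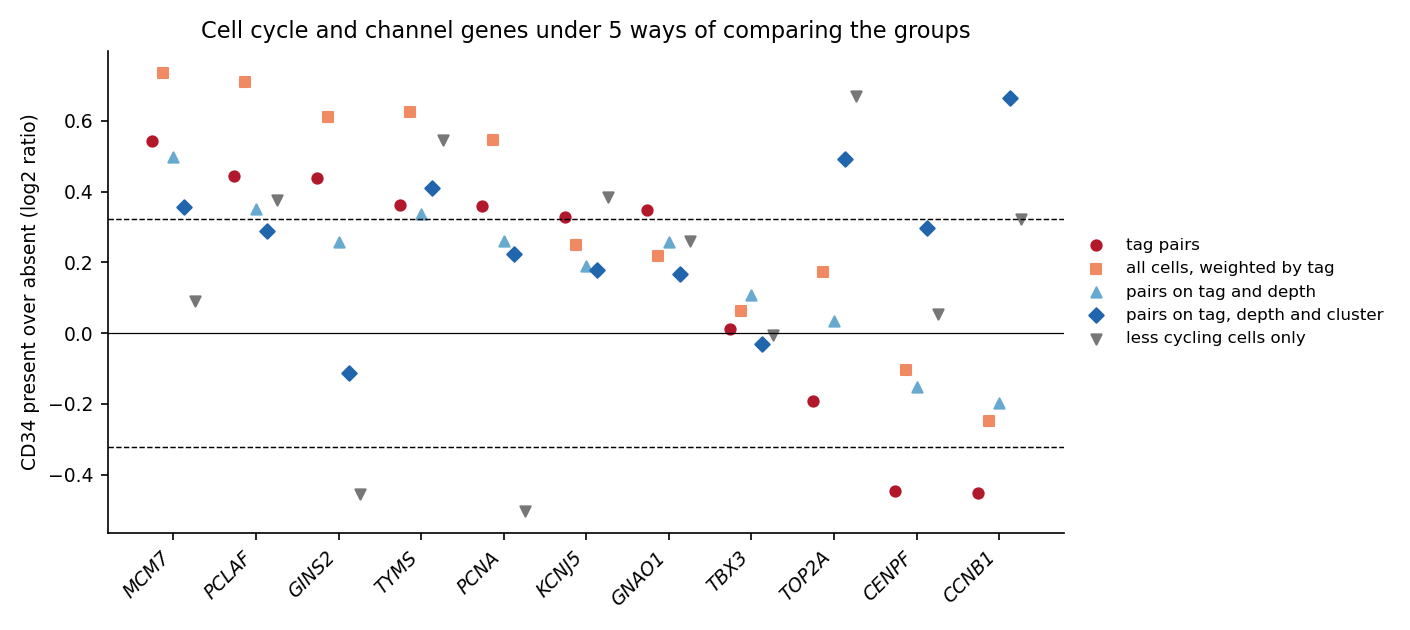
Log2 ratio, CD34-present over CD34-absent cells (y axis), of 11 genes under 5 ways of comparing the groups (symbols); dashed lines mark 25% higher and 20% lower. MCM7, PCLAF and TYMS lie above 0 under all 5. GINS2 lies below 0 with pairs on tag, depth and cluster and among less cycling cells, and PCNA among the latter only. Less cycling cells were chosen by cell cycle genes, and clusters were drawn with them, so the points of both settings give no direction for cell cycle genes. TOP2A, CENPF and CCNB1 on the right lie below 0 with tag pairs and above it with pairs on tag, depth and cluster.

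Other genes with the highest ratios had no common list. ANKRD1, a stretch-responsive protein of the sarcomere and nucleus, had 120 CPM in CD34-present and 78.1 CPM in CD34-absent cells (1.53, 1.35 to 1.74), but an ANKRD1 UMI was found in 30.4% and 29.8% of thinned cells, the ratio was 2.41 in the highest bin of tag level and 1.11 in the middle one, and without pairing it was 1.13. LRRTM3, a synaptic adhesion protein on chromosome 10 at 66926036 to 67101551, had 50.6 and 38.8 CPM (1.30, 1.09 to 1.57), against 11.3 CPM in tag-low cells. Its ratio was 1.27 or more under every alternative, but the alternatives share cells with the main comparison and are not independent of it. CADPS, which primes dense-core vesicles, had 52.2 and 37.5 CPM (1.39, 1.16 to 1.68). SLC5A3, a myo-inositol transporter, had a ratio of 1.30, TMEM97 of 1.33, the noncoding MIR99AHG of 1.31, the ciliary gene AHI1 of 1.31, and RANBP6, CSNK1G3 and MRPS35 of 1.36, 1.35 and 1.30. With pairs also matched on RNA depth, RANBP6, AHI1 and SLC5A3 were at 1.11, 1.18 and 1.22. Apart from ANKRD1 and MRPS35, the genes of this paragraph reached 50 CPM in CD34-present cells alone, so their ratios only describe them.

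The lowest ratio was that of MGP, a matrix protein gene that fibroblasts and smooth muscle express, and it rested on few cells. It had 18.5 CPM in CD34-present and 57.6 CPM in CD34-absent cells (0.321, 0.254 to 0.403), with a UMI in 8.41% and 10.0% of thinned cells. A single cell held 38.1% of the CD34-absent counts, and the ratio was 1.23 when cells called doublets, 2.74% of CD34-present and 2.82% of CD34-absent cells, were left out. The proteoglycan gene VCAN had 129 and 171 CPM (0.751, 0.680 to 0.829), against 270 CPM in tag-low cells. STRN3, NUDT14, CCDC14 and PIN4 had ratios of 0.759, 0.771, 0.773 and 0.774 on 227 to 321 counts per group, and HIST1H1A, a linker histone gene with close copies, 0.674. Like MGP, these genes reached 50 CPM in CD34-absent cells alone, so their ratios only describe them. VCAN, whose ratio ran from 0.677 to 0.902 over the alternatives, is outside the list of 12 matrix genes. Of that list 7 were measured and only MGP was past a limit (lower), beside 0.49% of all measured genes. Fibroblast markers summed to 270 CPM in CD34-present and 309 CPM in CD34-absent cells, and their part in the matrix values was not tested. The median log2 ratio of 3 measured fibroblast markers ran from -1.09 to 1.33 over the alternatives and that of the matrix genes from -0.53 to 0.73, so neither has a stable direction.

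Blood and endothelial markers were near 0 in both groups. PECAM1, CDH5 and TEK, which define endothelium, gave 0 counts in both groups, as did PTPRC, GATA1 and TAL1, which define blood cells. The 10 endothelial markers together had 4.53 CPM in CD34-present and 7.20 CPM in CD34-absent cells, most of it from EGFL7 with 21 and 28 counts, and 7 and 4 of them were at 0. The 10 blood markers had 5.80 and 2.58 CPM, with 6 at 0 in each group; LYL1 gave 11 and 4 counts (ratio 2.70, 0.8003 to 11.6), RUNX1 10 and 5 (1.96, 0.612 to 7.32), SPI1 7 and 4 and MYB 4 and 1. Factors known to act on the CD34 gene in blood or vessels were also rare. GATA2 gave 3 and 1 counts, LMO2 5 and 4, and FLI1, SOX17, SOX18 and HOXA9 0 in both, while MEIS1 had 17.9 and 19.0 CPM (0.944, 0.709 to 1.26) and ETV6 12.7 and 13.5 CPM.

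Of the proteins related to CD34 or able to bind it, PODXL, its relative podocalyxin, gave 37 counts in CD34-present and 25 in CD34-absent cells (1.45, 0.852 to 2.52), with 37.8% of the CD34-present counts in 1 cell. PODXL2 gave 13 and 16 counts. The sialomucin CD164 had 150 and 151 CPM (0.990, 0.898 to 1.09), and EMCN and the selectin genes SELE and SELP gave 0. CRKL, an adaptor that binds the tail of CD34, gave 106 and 96 counts. Genes of mucin-type glycosylation and sialylation, which build the sugars of sialomucins, had 3 of 14 measured, GALNT1 (1.12), ST3GAL1 (1.13, 1.004 to 1.28) and CMAS (1.15, 1.01 to 1.31), none past a limit. At 10 CPM, where 4.5% of all genes were at least 20% lower, 1 of 11 was lower, ST3GAL2, with 12.7 and 17.7 CPM (0.716, 0.519 to 0.985).

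The genes next to CD34 on chromosome 1 did not move alike. LINC02767, a long noncoding RNA gene at 207958991 to 207968142, on the promoter side of CD34, gave 61 counts in CD34-present and 41 in CD34-absent cells, or 11.1 and 7.57 CPM (ratio 1.46, 0.968 to 2.23), against 0.884 CPM (0.505 to 1.44) in tag-low and 0.0886 CPM in epithelial-like cells. It was thus found mainly in tag-high cells of both groups, in 9.71% and 7.77% of them after thinning and in 0.633% of tag-low cells. Its ratio was 1.03, 1.2498 and 1.996 in the lowest, middle and highest bin of tag level, on 12 to 30 counts per group. It remained between 1.23 and 2.92 over the alternatives, with 2.07 for cells with 2 or more CD34 UMIs. The alternatives share cells with the main comparison and are not independent of it. PLXNA2, the next protein-coding gene on that side at 208022242 to 208244384, had 6.53 and 9.23 CPM (0.707, 0.448 to 1.11), against 20.9 CPM in tag-low cells. On the other side CD46, a complement regulator at 207752038 to 207795516, had 80.3 and 81.8 CPM (0.982, 0.859 to 1.12), against 75.3 CPM, and MIR29B2CHG gave 2 and 4 counts.

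Among the remaining lists no measured member was past a limit in the metallothioneins (5 of 9 measured), retinoic acid genes (4 of 10), BMP response genes (9 of 12), immediate early genes (7 of 10), stress response genes (2 of 10) or surface markers (2 of 10). MT1E, MT2A and MT1X, which bind zinc and copper, had ratios of 1.09, 0.936 and 1.01, though all were higher in tag-high than in tag-low cells (427, 393 and 115 CPM for MT1E). Reads of these near-identical genes may be shared. MT3, a metallothionein best known from brain, stood out under the floor with 38.8 CPM in CD34-present and 17.3 CPM in CD34-absent cells (2.24, 1.75 to 2.88), against 9.18 CPM in tag-low cells. It was found in 12.0% and 8.74% of thinned cells, single cells held 10.7% and 20.2% of its counts, and the ratio was 1.502 with pairs matched on depth and 1.32 with depth and cluster. ATF3 had 31.5 and 23.3 CPM (1.36, 1.07 to 1.72), against 51.2 CPM in tag-low cells. EGR1 and JUNB, immediate early genes that cell dissociation can raise, had ratios of 0.832 and 0.838.

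**Figure D5:**
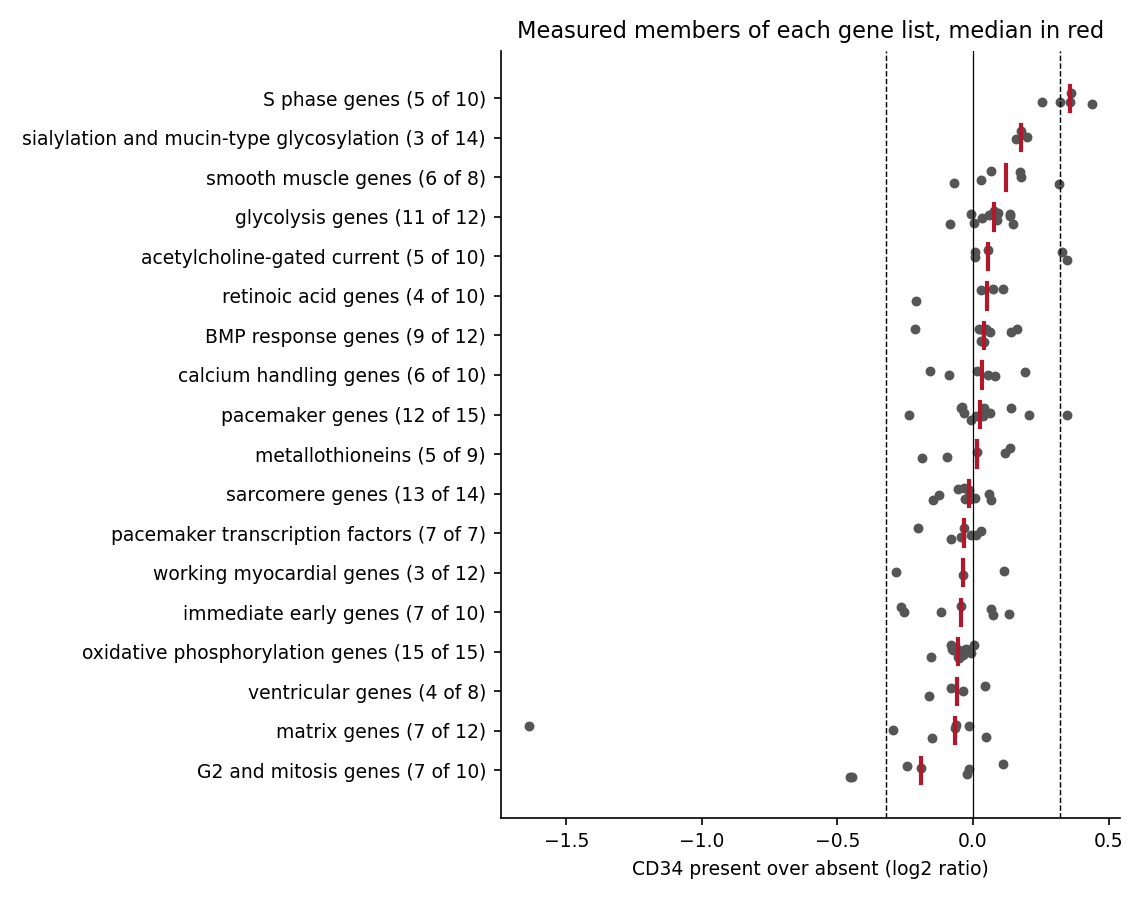
Log2 ratio, CD34-present over CD34-absent cells (x axis), of each measured member (grey points) of 18 gene lists with 3 or more measured members (fibroblast and epithelial-like markers, with 3 each, are not drawn), with the list median in red and, in brackets, measured members of all members; dashed lines mark 25% higher and 20% lower. S phase genes have the highest median (0.36) and G2 and mitosis genes the lowest (-0.19), and the outlying matrix gene at the left is MGP.

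CD34-present cells were found in all of the larger tag-high clusters. Cluster 3, led by TBX3, LRRTM3 and MYL3, held 33.98% of paired CD34-present and 27.8% of paired CD34-absent cells, cluster 0, led by KCNG1, 19.7% and 20.4%, cluster 5, led by HAMP and MYL3, 8.41% and 12.0%, and cluster 6, led by SFRP5, 9.06% and 7.44%. The clusters led by GJA5, by PLCXD3 and TRH, and by NKX2-5 each held under 3% of either group. Clusters were drawn with the genes compared here, so these shares only locate the cells.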

How the data were processed

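The authors deposited 1 matrix of whole-number UMI counts for 36601 genes and 1 antibody tag in 14829 barcodes, 239181462 RNA and 2773855 antibody-tag UMIs in all. The submitters' processing notes name Cell Ranger 6.1.2 and the build GRCh38; the library kit was 10x 3' version 3, per the labels' protocols. Counting is near the 3' end and carries no isoforms.

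Here cells were chosen by the limits given above, with no scaling of the antibody tag. Pairs were drawn by optimal assignment in scipy 1.17.1: most pairs first, then the smallest summed log2 gap in tag UMIs. CPM are summed counts over summed RNA UMIs. Intervals of CPM are exact Poisson, of shares Clopper-Pearson and of ratios exact conditional binomial; PCR and bursts of transcription within a cell are not covered. Called genes were at least 25% higher or 20% lower, with 50 CPM in the higher group. The 15 highest and 15 lowest ratios were named, leaving out CD34, mitochondrial, ribosomal protein and sex-linked marker genes, with members of 28 gene lists and the neighbours of CD34; some of these genes are not reported here. Members, lists and limits were chosen with earlier results of these data known. Clusters used scanpy 1.11.5 (2000 variable genes, 30 components, 15 neighbours, resolution 1). Doublets were left in and removed as an alternative: Scrublet called 1401 of 12119 barcodes (11.6%), 32 of them members. Thinning drew 8000 UMIs per cell. The ratio and pairing code was tested on simulated data. Coordinates and the promoter are from RefSeq GRCh38.p14. Of 18 alternatives, 3 were added after the data were seen: weighting, matching on TBX3 and leaving out cycling cells.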

Additional observations from a re-analysis of the deposited data

Results flagged for a closer look

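CD34 transcripts were also counted in cardiomyocytes outside the comparison. Of the 3190 cardiomyocytes under 280 antibody-tag UMIs, 70 had a CD34 UMI (2.19%, 1.71 to 2.76%). After thinning to 8000 RNA UMIs the share was 1.22% (0.871 to 1.67%), above the 0.133% (0.0433 to 0.311%) of epithelial-like cells, which serve as the background. Of that background 23 cells had at least 280 antibody-tag UMIs themselves. The 70 cells had a median of 162 antibody-tag UMIs (32 to 276), against 63 over all cardiomyocytes under the limit. At or under 48 antibody-tag UMIs, 8 of 1114 cardiomyocytes had a CD34 UMI, 0.539% after thinning (0.198 to 1.17%).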

How the results depend on the processing

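No pairing of replicate cultures was possible because the 2 libraries are of the same cells of 1 culture. For the same reason no replicate could be left out. The pairs of cells only set which cells were summed, and the intervals of the ratios do not use the pairing. The main comparison gave 33 higher and 16 lower genes (1.01% and 0.49% of 3266). Pairs matched on tag, RNA UMIs and cluster (214 pairs) gave 54 and 31 (1.64% and 0.944% of 3284). Cells with 2 or more CD34 UMIs (103 pairs) gave 228 and 123 (6.81% and 3.68% of 3346). After thinning (199 pairs) there were 194 and 155 (5.77% and 4.61% of 3363). At 10 CPM there were 505 and 404 (5.63% and 4.5% of 8970), and at 100 CPM 6 and 5 (0.372% and 0.31% of 1615). Without any UMI of the epithelial genes (210 pairs) there were 79 and 41 (2.39% and 1.24% of 3301). Without the more strongly cycling cells (152 pairs) there were 102 and 58 (3.18% and 1.81% of 3212). The lower count alone moved by over 1.5 times in other settings. It was 10 (0.307%) with pairs on tag and RNA UMIs, 8 (0.245%) at a tag limit of 200 and 27 (0.737%) with mitochondrial genes out of the total. It was 36 (1.09%) with at most 15% mitochondrial UMIs, 9 (0.277%) with pairs matched also on TBX3 and 6 (0.184%) with weighting of all cells. Settings with fewer pairs have larger counting error per gene. The share of members with a CD34 UMI was 32.3% at a tag limit of 400, 24.9% at 200 and 17.4% after thinning. Of the 15 genes with the highest ratios, 13 were still at least 25% higher with weighting, 10 with pairs on tag and RNA UMIs and 6 with cluster added; of the 15 lowest, 4, 6 and 2 were still at least 20% lower.

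Of the genes past a limit in the main comparison, or at such a ratio under the 50 CPM floor, these ratios changed sides. With pairs on tag, RNA UMIs and cluster: GINS2 0.925, MGP 1.21, TUBA1C 1.11, KIF23 1.02, CCNB1 1.58, DLGAP5 1.22, CENPF 1.23, KPNA2 1.27, ARL6IP1 1.21, PTTG1 1.37, PLK1 1.26 and CDC20 1.38. Without the more strongly cycling cells: GINS2 0.730, PCNA 0.705, TMEM97 0.941, MGP 1.36, CCNB1 1.251, DLGAP5 2.92, CENPF 1.04, ARL6IP1 1.22 and PTTG1 1.05. That setting left cells out by their cell cycle genes, and no member of the S phase or the G2 and mitosis list was measured in it. No direction is therefore read from its ratios of cell cycle genes. The same holds for pairs matched on cluster, since the clusters were drawn with cell cycle genes too. With pairs matched also on TBX3: KIF23 1.02, CCNB1 1.03, DLGAP5 1.03, CENPF 1.03 and KPNA2 1.01. After thinning: MIR99AHG 0.930, TYMS 0.868 and ATF3 0.978. Others were MGP without doublets (1.23) and PLXNA2 at 2 or more CD34 UMIs (1.04). Ratios inside the limits, whose side is not counted, crossed 1 as well, among them TOP2A, TPX2, RRM2, NPPA and COL1A1 (0.343 to 4.08). The cause was not tested. Of 2952 ratios of 164 genes, 2448 lay inside the counting interval of the main ratio, 473 outside on the same side or without a call, and 31 changed sides. The S phase median stayed above 0 wherever a member was measured (0.22 to 0.66), and the G2 and mitosis median ran from -0.50 to 0.49. Depth limits genes near 50 CPM: GINS2, on 302 and 219 counts, had a counting interval from 1.13 to 1.62.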
